A study of Homo sapiens with 21 samples.

Results

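The genes described here are the receptors of the epidermal growth factor receptor (ERBB) family with their ligands and feedback inhibitors, 10 genes of the pathway that lapatinib targets. They are EGFR, ERBB2 and ERBB3 (receptors), AREG, EREG, HBEGF, TGFA and NRG1 (ligands), and ERRFI1 and LRIG1 (feedback inhibitors). Their rows were found in the count table by NCBI gene ID, matched to current NCBI symbols, so that 10 of the 28395 genes in the table were members. RNA was sequenced from wild-type Hs578T cells, an established human triple-negative breast cancer (TNBC) line, 8 h after treatment in 7 groups of 3 libraries each. The groups received DMSO (the solvent control), lapatinib at 3.16 µM, nilotinib at 1 µM, or THZ531 at 0.1 µM or at 1 µM. The remaining pair received THZ531 at its lower dose together with lapatinib or with nilotinib at the same doses as alone, called here the lapatinib and the nilotinib combination. THZ531 inhibits the transcriptional kinases CDK12 and CDK13, lapatinib inhibits EGFR and ERBB2, and nilotinib is an inhibitor of the Bcr-Abl tyrosine kinase. All values come from this 1 cell line, 1 time point and the doses given. The replicate libraries came from independent experiments according to the study, and the labels do not say that a replicate number marks one experiment across the groups. The comparisons ask whether the RNA of the ERBB pathway followed the inhibitor of its own receptors, the CDK12/13 inhibitor, or their combination.

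ERBB receptors are tyrosine kinases at the cell surface that pair with each other when a ligand binds and then signal through the RAS-MAPK and PI3K pathways. ERBB2 has no known ligand of its own and acts as the partner of the others, and ERBB3 has a weak kinase and relies on its partners. Ligands such as HBEGF, AREG, EREG and TGFA are made as membrane proteins that are cut free by ADAM proteases, and NRG1 binds ERBB3 and ERBB4. ERRFI1 (also called MIG6) binds the active receptor kinase and blocks it, and LRIG1 is a membrane protein that promotes the removal of receptors, so that both act as brakes that the pathway itself can switch on.

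The stretch directly upstream of the gene start is shown for the 2 members with the largest called rises in a combination, HBEGF and ERRFI1, and for the neighbouring ligand genes AREG and EREG, which were near silent. Each is the 250 bases before the RefSeq start in GRCh38.p14, read 5′ to 3′ on the gene's own strand. Capitals mark matches, on either strand, to the TATA box (TATAAA), the GC box (GGGCGG) or the cAMP response element (TGACGTCA). Only these exact letters were searched for, so the run of alternating t and a near the end of the ERRFI1 stretch is not marked. The HBEGF stretch lies on the minus strand at chr5:140346604-140346853, and its last 2 marked GC boxes share 1 base.
HBEGF: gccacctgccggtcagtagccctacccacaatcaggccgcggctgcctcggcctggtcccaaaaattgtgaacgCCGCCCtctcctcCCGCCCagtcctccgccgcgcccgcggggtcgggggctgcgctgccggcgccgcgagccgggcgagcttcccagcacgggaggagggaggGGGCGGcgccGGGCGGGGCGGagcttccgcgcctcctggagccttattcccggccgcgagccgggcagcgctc
The ERRFI1 stretch lies on the minus strand at chr1:8026310-8026559.
ERRFI1: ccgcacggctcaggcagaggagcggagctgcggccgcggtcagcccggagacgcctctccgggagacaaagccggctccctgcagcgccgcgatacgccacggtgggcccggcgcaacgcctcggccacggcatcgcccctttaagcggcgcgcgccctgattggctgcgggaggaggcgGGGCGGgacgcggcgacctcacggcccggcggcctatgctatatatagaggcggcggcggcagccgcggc
The AREG stretch lies on the plus strand at chr4:74444886-74445135.
AREG: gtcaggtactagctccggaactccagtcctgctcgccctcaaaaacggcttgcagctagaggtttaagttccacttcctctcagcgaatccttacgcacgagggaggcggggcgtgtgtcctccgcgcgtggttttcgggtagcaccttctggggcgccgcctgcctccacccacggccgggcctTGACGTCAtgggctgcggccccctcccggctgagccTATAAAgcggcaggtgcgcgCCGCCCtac
The EREG stretch lies on the plus strand at chr4:74364895-74365144.
EREG: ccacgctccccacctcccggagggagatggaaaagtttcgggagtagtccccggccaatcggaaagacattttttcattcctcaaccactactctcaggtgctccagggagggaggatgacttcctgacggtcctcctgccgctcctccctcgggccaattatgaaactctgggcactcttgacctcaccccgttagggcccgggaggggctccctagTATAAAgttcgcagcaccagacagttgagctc
HBEGF held 5 GC boxes and ERRFI1 held 1, with a GC content of 76.4% and 75.2%, against a median of 58.0% over 35116 promoter windows of RefSeq. AREG held 1 TATA box, 1 GC box and 1 cAMP response element, and EREG held 1 TATA box. A GC box was present in 42.6% of those windows, a TATA box in 10.7% and a cAMP response element in 1.65%. None of the 4 stretches held the AP-1 letters TGACTCA or a CArG box. The windows came from the RefSeq promoter table, which matched 5 of the 10 members (these 4 and ERBB2). EGFR, ERBB3, TGFA, NRG1 and LRIG1 were not in it.

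Total counts were 97612207 to 112229052 per library, the mesenchymal marker VIM lay at 6390 to 10100 CPM (counts in proportion to the scaled total of the library), and the epithelial markers CDH1 and EPCAM had 12 to 41 and 0 to 10 raw counts. The estrogen receptor gene ESR1 had 9 to 59 counts and the progesterone receptor gene PGR 0 to 4. The member ERBB2, listed with these 4 genes as low or absent in this line, was instead detected, at 2206 to 4866 counts (24 to 42 CPM). Of 2 markers of other cell types, the endothelial gene PECAM1 lay at 0.241 to 0.605 CPM and was not called, and the leukocyte gene PTPRC lay at 0.774 to 2.45 CPM and was higher in the lapatinib combination, the nilotinib combination and THZ531 (1 µM) than in DMSO (log2 fold change (FC) 0.74, 0.82 and 1.14), and its part in the results was not tested. The choice of scaling moved the whole transcriptome. Under the scaling used throughout (trimmed mean of M-values, TMM) the median gene changed by -0.01, -0.01 and -0.01 (log2 FC) in these 3 treatments, whereas scaling to the 13 mRNAs of the mitochondrial genome moved the median to -0.69, -0.63 and -0.55, and scaling to library size alone moved it to -0.34, -0.31 and -0.27. In the lapatinib combination 6064 genes were lower and 5500 higher with TMM, but 9366 lower and 850 higher with mitochondrial scaling. Mitochondrial mRNAs took 1.25% ± 0.0895 (SD, n = 3) of the counts in DMSO and 1.60% ± 0.139 in the lapatinib combination. Changes below are therefore relative to the typical gene unless another scaling is named. The counts do not give the amount of RNA per cell, and whether the mitochondrial mRNAs themselves changed was not tested.

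In DMSO the members fell into a detected and a near silent set. Per kilobase of annotated exon, the level was 12.4 ± 0.504 CPM for ERRFI1 and 11.9 ± 1.42 CPM for EGFR (SD, n = 3), which did not differ beyond their spread. LRIG1 (3.87 ± 0.301), HBEGF (3.67 ± 0.0996), ERBB2 (3.64 ± 0.396) and NRG1 (3.42 ± 0.014) followed at about the same CPM per kilobase. The level of every member is spread over the annotated exons of all its isoforms, so the order of the members depends on the annotation. These exons add up to 21372 bases for NRG1, 15941 for EGFR and 2990 for HBEGF. ERBB3 was far below at 0.0463 ± 0.00446 CPM per kilobase, next to AREG at 0.0356 ± 0.00744. EREG and TGFA had a median of 0 counts in DMSO. In the lapatinib combination ERRFI1 (20.5 ± 1.36) and HBEGF (16.9 ± 1.58) stood highest per kilobase, and EGFR (3.04 ± 0.223) had moved down beside NRG1 (3.63 ± 0.188) and ERBB2 (2.68 ± 0.302).

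**Figure D1:**
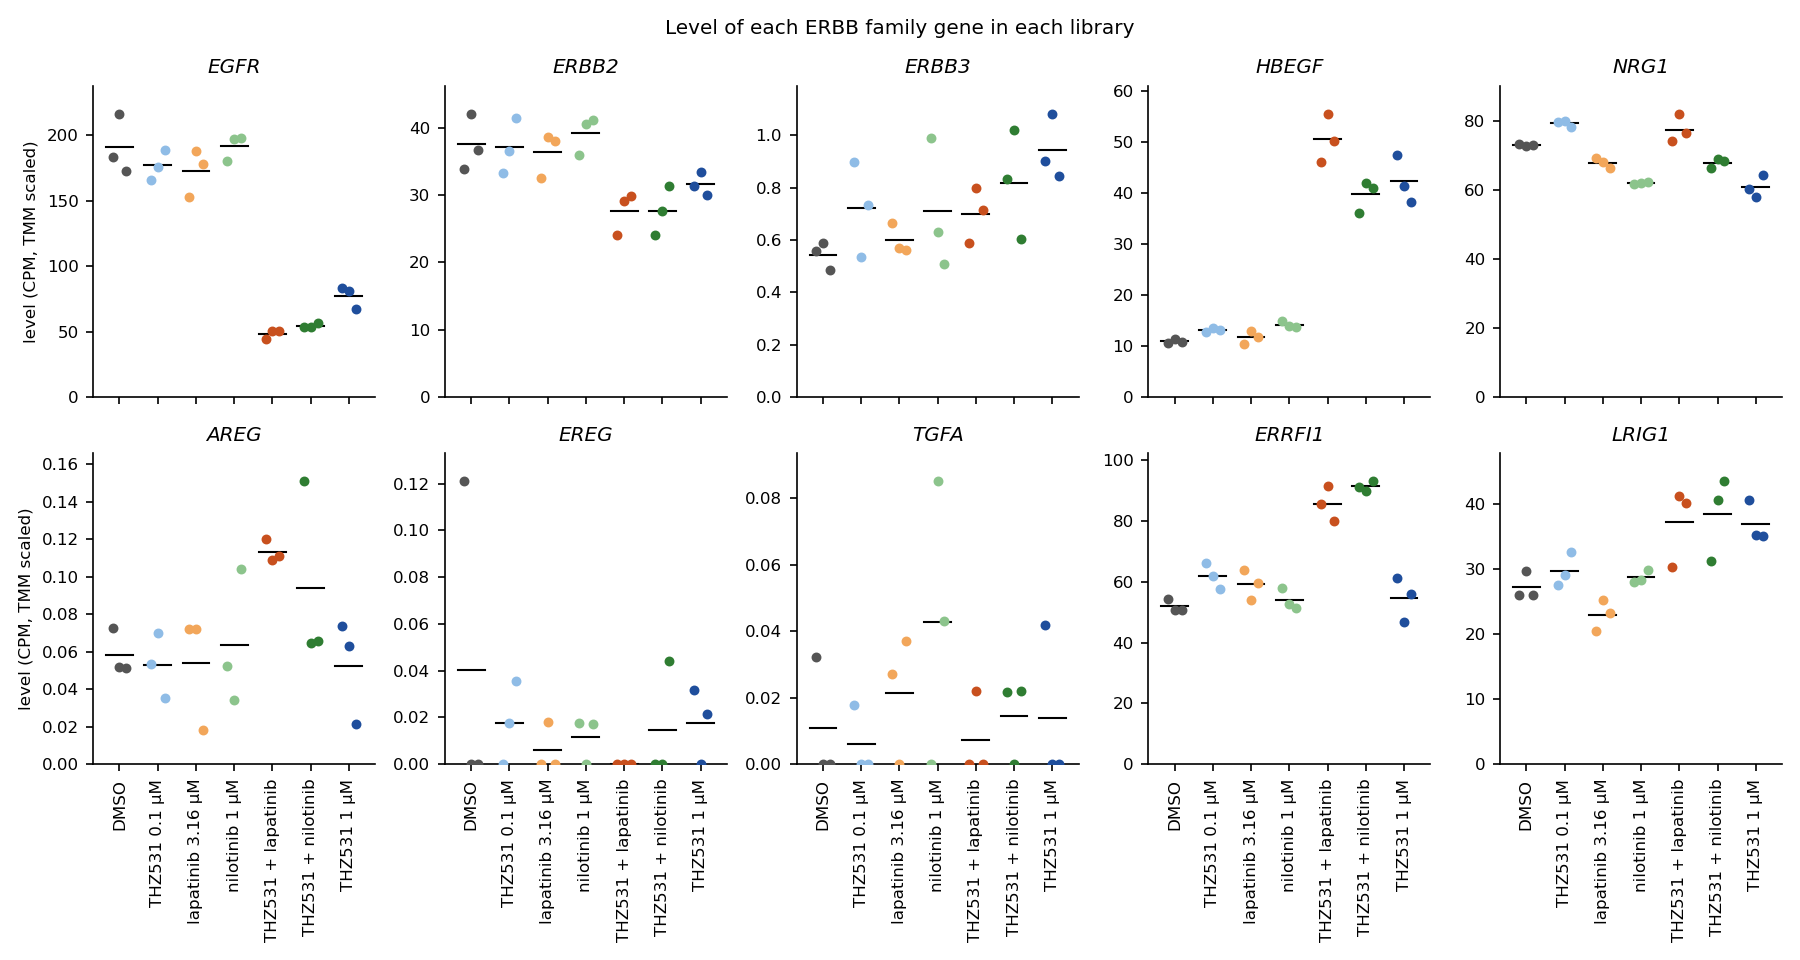
Level of each of the 10 genes in CPM (vertical axis, linear from 0, a separate scale for each gene) in each of the 21 libraries, grouped by treatment along the horizontal axis. Points are libraries and black lines are group means; EGFR is at 44.4 to 83.1 CPM in both combinations and THZ531 (1 µM) and at 153 to 216 CPM elsewhere, and HBEGF is at 36.1 to 55.5 CPM in the same 3 groups and at 10.5 to 15 CPM elsewhere.

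EGFR, the main receptor of the family (chromosome 7, 55019017 to 55211628, GRCh38.p14), kept its level under lapatinib and lost most of it in the combinations. The DMSO libraries had 183, 216 and 173 CPM, those with THZ531 (0.1 µM) had 166, 176 and 189 CPM, and those with lapatinib had 153, 188 and 178 CPM. The nilotinib libraries had 180, 197 and 198 CPM. These 4 groups overlapped. The lapatinib combination fell to 44.4, 50.3 and 50.7 CPM, the nilotinib combination to 53.2, 53.6 and 56.5 CPM, and THZ531 (1 µM) to 83.1, 81.3 and 67.3 CPM. Each of these libraries lay below all libraries of the other 4 groups. Against DMSO the log2 FC was -1.97 ± 0.10 (SE) in the lapatinib combination, 3.93-fold lower, with an adjusted p of 7.03e-13. It was -1.81 ± 0.10 in the nilotinib combination (adjusted p 2.58e-12) and -1.30 ± 0.10 with THZ531 (1 µM) (adjusted p 3.99e-10). EGFR ranked 1255th from the lowest log2 FC among the 16036 genes tested in the lapatinib combination. Lapatinib alone gave a log2 FC of -0.14 with a 95% interval of -0.34 to 0.06 (adjusted p 0.882), and THZ531 (0.1 µM) alone gave -0.11 with an interval of -0.31 to 0.09. The fall of EGFR was called under each of the scalings, and with mitochondrial scaling the log2 FC of the lapatinib combination was -2.65. The antisense gene EGFR-AS1 overlaps EGFR and had 0 to 10 counts, but the libraries do not mark strand, so its reads and those of EGFR cannot be told apart where they overlap.

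ERBB2, the ligandless partner (chromosome 17, 39688094 to 39728658), fell less. It had 33.9, 42 and 36.7 CPM in DMSO, 24.1, 29.1 and 29.8 CPM in the lapatinib combination, 24, 27.6 and 31.4 CPM in the nilotinib combination, and 31.4, 33.5 and 30 CPM with THZ531 (1 µM). All libraries of these 3 groups lay below those of DMSO. The log2 FC against DMSO was -0.44 ± 0.11 (SE) in both combinations (adjusted p 0.00174 and 0.00176), and -0.25 with THZ531 (1 µM), which was not called (adjusted p 0.0576). With library size alone or mitochondrial scaling the last of these was called as well (adjusted p 0.000663 and 1.4e-05), and so it was with the replicate number as a block (-0.24, adjusted p 0.0112). It was also called without replicate 1 of DMSO, of the lapatinib combination or of the nilotinib combination, replicate 3 of the nilotinib combination or replicate 2 of THZ531 (1 µM), with adjusted p 0.0321 to 0.049. Lapatinib, nilotinib and THZ531 (0.1 µM) alone gave log2 FCs of -0.04, 0.06 and -0.02, and no group of these stood apart from DMSO. The end of ERBB2 overlaps MIEN1, which had 2287 to 3578 counts, at chr17:39728510-39728658, where reads of the 2 genes cannot be told apart.

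ERBB3, the receptor for neuregulins (chromosome 12, 56080108 to 56103505), was close to silent, with 54 to 113 counts in a library. It had 0.543 ± 0.0522 CPM in DMSO (SD, n = 3) and 0.942 ± 0.122 CPM with THZ531 (1 µM), where all 3 libraries were above those of DMSO. The log2 FC was 0.79 ± 0.24 (SE, adjusted p 0.00691) with THZ531 (1 µM) and 0.59 ± 0.25 in the nilotinib combination (adjusted p 0.0383). It was 0.37 in the lapatinib combination, which was not called (adjusted p 0.191). The call in the nilotinib combination was lost without any 1 of the DMSO libraries or replicates 1 or 2 of that combination (5 of 21 fits without 1 library, adjusted p up to 0.193), and with no filter on low counts (adjusted p 0.0504). With library size alone both calls were lost (adjusted p 0.308 in the nilotinib combination and 0.059 with THZ531 (1 µM)), as they were with mitochondrial scaling (adjusted p 0.96 and 0.427). In the combinations mitochondrial scaling turned its sign, to -0.32 and -0.02.

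Among the member ligands, HBEGF, which binds EGFR and ERBB4 (chromosome 5, 140332843 to 140346603, with the 5 GC boxes shown above), was the one called higher than in DMSO on the TMM scale. Its DMSO libraries had 10.7, 11.3 and 10.8 CPM, and the lapatinib libraries 10.5, 12.9 and 11.8 CPM. THZ531 (0.1 µM) alone had 12.8, 13.6 and 13.1 CPM and nilotinib alone 15, 13.9 and 13.8 CPM, all above DMSO but not called (log2 FC 0.26, adjusted p 0.114, and 0.38, adjusted p 0.0878). DESeq2 called both (adjusted p 0.0383 and 0.00751). In the lapatinib combination HBEGF reached 46.1, 55.5 and 50.3 CPM, in the nilotinib combination 36.1, 42.1 and 41.1 CPM, and with THZ531 (1 µM) 47.5, 41.5 and 38.2 CPM. None of these libraries overlapped the other 4 groups. The log2 FC against DMSO was 2.21 ± 0.10 (SE), 4.62-fold, in the lapatinib combination (adjusted p 1.01e-13), 1.86 ± 0.10 in the nilotinib combination (adjusted p 1.17e-12) and 1.95 ± 0.10 with THZ531 (1 µM) (adjusted p 1.1e-12). The rise remained called with mitochondrial scaling, at a log2 FC of 1.53 in the lapatinib combination. HBEGF ranked 439th from the highest log2 FC of 16036 genes there.

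NRG1, a neuregulin (chromosome 8, 31639245 to 32774046), is the longest member, with a span of 1134.8 kb, and on the TMM scale its group means stayed between 60.8 and 79.3 CPM. DMSO had 73.4, 72.8 and 72.9 CPM, nilotinib 61.7, 62.1 and 62.3 CPM, and THZ531 (1 µM) 60.2, 57.9 and 64.2 CPM. The lapatinib combination had 74.1, 81.9 and 76.4 CPM and the nilotinib combination 66.3, 69 and 68.4 CPM. NRG1 was thus lowest with nilotinib alone and with THZ531 (1 µM), both below all DMSO libraries. The fall with THZ531 (1 µM) was called (log2 FC -0.27 ± 0.05 (SE), adjusted p 0.000203), although upper-quartile scaling ended this call (-0.06, adjusted p 0.277). The fall with nilotinib was not called (log2 FC -0.24, adjusted p 0.0641), but it was with DESeq2 (adjusted p 0.00443). In the lapatinib combination the log2 FC was 0.09 (adjusted p 0.161) and its direction depended on the scaling, from -0.60 with mitochondrial scaling (adjusted p 0.000263) to 0.24 with upper-quartile scaling (adjusted p 0.000302). In the nilotinib combination it was -0.11 and not called (adjusted p 0.0875), but library size alone and mitochondrial scaling called it lower (-0.41, adjusted p 1.69e-06, and -0.73, adjusted p 2.02e-05), and upper-quartile scaling turned its sign (0.035, not called). With THZ531 (1 µM) mitochondrial scaling gave -0.80 (adjusted p 4.37e-06).

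The other EGFR ligands were near or below the detection limit, which is 3 counts or 0.0242 to 0.0334 CPM. AREG (amphiregulin, chromosome 4, 74445136 to 74455005) had 2 to 14 counts in a library. It reached 10 counts in 5 of 21 libraries, the 3 of the lapatinib combination (10 to 11 counts, against 6 to 9 in DMSO) among them, so that it passed the filter on low counts through the group where it was highest. It was called in none of the 15 contrasts on the TMM scale, and upper-quartile scaling called it higher in the lapatinib combination than with lapatinib alone (log2 FC 1.20, adjusted p 0.0486, against 1.05 and 0.0825 with TMM). Its log2 FC in the lapatinib combination was 0.94, with a 95% interval of -0.14 to 2.02. EREG (epiregulin, chromosome 4, 74365145 to 74388749) had 0 counts in every library of the lapatinib combination and 0 to 15 elsewhere, the highest in 1 DMSO library. TGFA (transforming growth factor alpha, chromosome 2, 70447284 to 70553826) had 0 to 10 counts, the highest in 1 nilotinib library. EREG and TGFA were filtered out and not tested, so that 8 of the 10 members were.

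The feedback inhibitors rose in both combinations on the TMM scale. ERRFI1 (chromosome 1, 8011727 to 8026309) had 54.4, 50.8 and 50.7 CPM in DMSO and 61.4, 46.7 and 56.1 CPM with THZ531 (1 µM), so these groups overlapped. It had 85.5, 91.4 and 80.1 CPM in the lapatinib combination and 91.1, 90 and 93.1 CPM in the nilotinib combination, above every other library. The log2 FC was 0.72 ± 0.09 (SE, adjusted p 4.6e-07) and 0.81 ± 0.09 (adjusted p 9.02e-08) in the combinations and 0.07 ± 0.09 with THZ531 (1 µM) (adjusted p 0.469). With mitochondrial scaling these became 0.04 (adjusted p 0.834), 0.19 (adjusted p 0.261) and -0.48 (adjusted p 0.00417), so the rise in the combinations was not called on that scale. It stayed called there with library size alone, upper-quartile scaling and DESeq2 size factors in edgeR. With THZ531 (1 µM) upper-quartile scaling called ERRFI1 higher instead (0.27, adjusted p 0.00642). Lapatinib alone had 64, 54.1 and 59.6 CPM, which overlapped DMSO (log2 FC 0.19, 95% interval 0.00 to 0.37, adjusted p 0.686).

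LRIG1 (chromosome 3, 66378797 to 66501121) had 26, 29.7 and 26 CPM in DMSO and 20.5, 25.2 and 23.3 CPM with lapatinib alone. It had 30.3, 41.2 and 40.2 CPM in the lapatinib combination, 31.3, 40.6 and 43.5 CPM in the nilotinib combination, and 40.7, 35.2 and 35.1 CPM with THZ531 (1 µM). All 3 groups lay above DMSO, with 1 library of each combination close to it. The log2 FCs were 0.45, 0.50 and 0.44, each ± 0.12 (SE), with adjusted p 0.00298, 0.00137 and 0.00368. These calls were lost with library size alone (adjusted p 0.398, 0.179 and 0.213), and mitochondrial scaling turned the sign (-0.24, -0.13 and -0.11). All lapatinib libraries were below DMSO, but the difference was not called (log2 FC -0.25, adjusted p 0.739). LRIG1 overlaps SLC25A26 at chr3:66378797-66378927, where reads cannot be assigned to either gene.

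**Figure D2:**
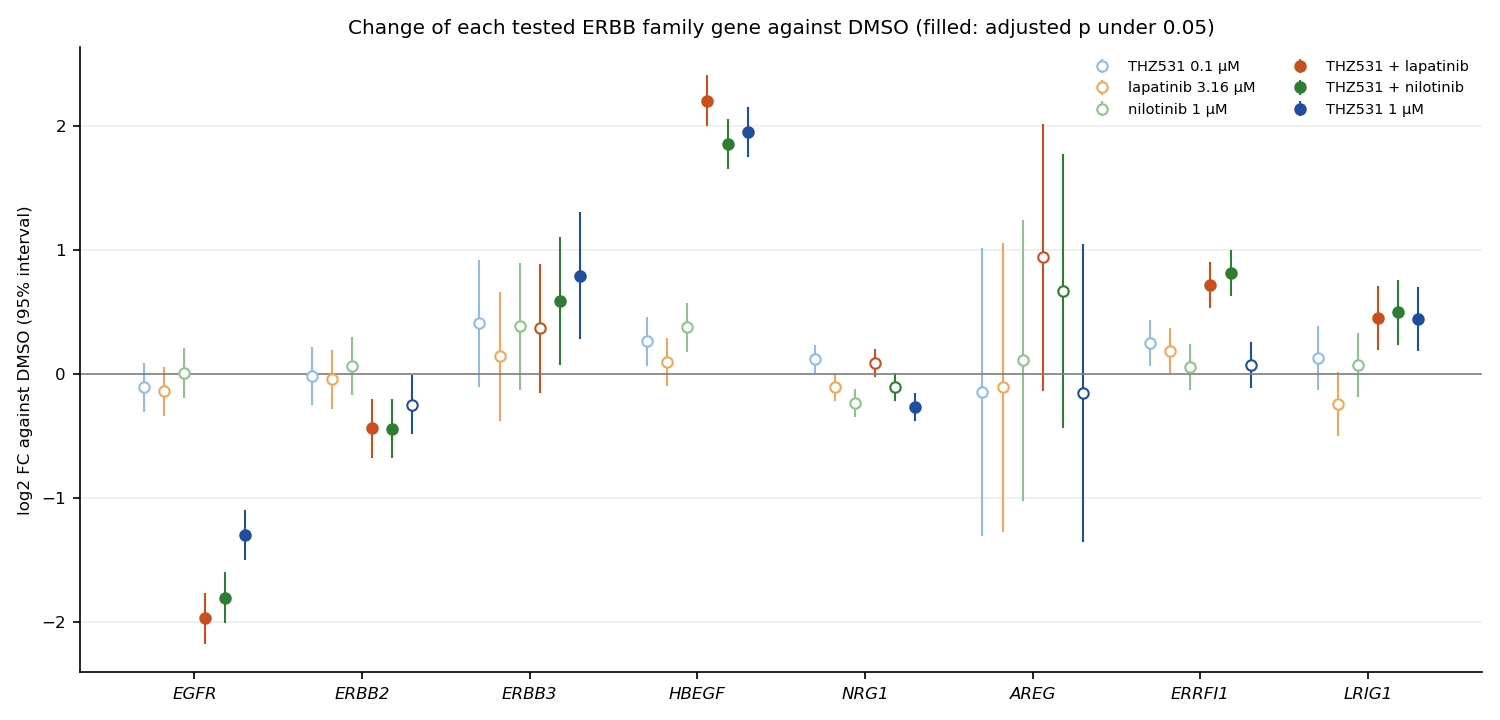
Log2 FC against DMSO (vertical axis) of the 8 tested genes (horizontal axis) for the 6 treatments, with 95% intervals that are not adjusted for the number of genes. Filled points passed an adjusted p of 0.05 (edgeR over 16036 genes); single agents at the low doses have no filled point, and EGFR and HBEGF lie farthest from 0 in the combinations and THZ531 (1 µM), at -1.97 to -1.30 and at 1.86 to 2.21.

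Counted over the family, the single agents called no member at an adjusted p under 0.05 by edgeR, and both combinations and the high dose called most of those tested. For THZ531 (0.1 µM) 0 of 8 members were called, against 6.09% of all genes tested, with 3 members at an unadjusted p under 0.05 and 1 called by DESeq2. For lapatinib 0 of 8 were called, against 0.312% of all genes, with 1 at an unadjusted p under 0.05 and 0 called by DESeq2. For nilotinib 0 of 8 were called, against 0.343% of all genes, with 2 at an unadjusted p under 0.05 and 2 called by DESeq2. In the lapatinib combination 3 members were higher (HBEGF, ERRFI1 and LRIG1) and 2 lower (EGFR and ERBB2), against 34.3% of all genes higher and 37.8% lower. In the nilotinib combination 4 were higher, ERBB3 in addition, and the same 2 were lower, against 33.7% and 37.3% of all genes. With THZ531 (1 µM) 3 were higher (HBEGF, ERBB3 and LRIG1) and 2 lower (EGFR and NRG1), against 33.1% and 36.8%. With mitochondrial scaling HBEGF was the 1 member called higher in each of these 3 treatments, and EGFR, ERBB2 and NRG1 were called lower in each, with ERRFI1 in addition with THZ531 (1 µM), which made 3, 3 and 4 lower. The number of members called on the TMM scale was near what the share of all genes would give. The median log2 FC of the tested members was 0.41, 0.54 and -0.04 in these 3 treatments, beside -0.01 in each over all genes. Libraries did not overlap with DMSO for 8, 7 and 6 of the 8 tested members, against 73.4%, 72.9% and 72.3% of all genes. The medians and these counts include AREG, which had passed the filter through the lapatinib combination, where its log2 FC was 0.94. These treatments share the DMSO libraries and are not independent of each other. Adding THZ531 (0.1 µM) to lapatinib, compared with lapatinib alone, called 4 members higher (HBEGF, NRG1, ERRFI1 and LRIG1) and 2 lower (EGFR and ERBB2), against 34.9% and 37.4% of all genes. Adding it to nilotinib called the same members, against 33.6% and 36.7%. The NRG1 call with nilotinib (log2 FC 0.13, adjusted p 0.0372) was lost in 5 of 21 fits without 1 library. It was also lost with no filter (adjusted p 0.12) and only the groups compared (0.0803). With lapatinib, upper-quartile scaling ended the ERBB2 call (adjusted p 0.0634) and library size alone the ERRFI1 call (0.0534). With nilotinib, library size alone ended the LRIG1 call (adjusted p 0.334). With mitochondrial scaling 1 was higher and 3 lower with lapatinib, and 1 higher and 2 lower with nilotinib. Mitochondrial scaling called NRG1 lower with lapatinib (log2 FC -0.35, adjusted p 0.0262). Library size alone called NRG1 lower with both (-0.14, adjusted p 0.0308, and -0.15, adjusted p 0.0214). The dose of THZ531, 1 µM against 0.1 µM, called HBEGF and LRIG1 higher and EGFR and NRG1 lower, against 34.3% and 35.9%. The LRIG1 call (log2 FC 0.31, adjusted p 0.0303) was lost with library size alone (0.09, adjusted p 0.552) and without replicates 1 or 2 of THZ531 (0.1 µM) or replicate 1 of THZ531 (1 µM) (adjusted p up to 0.132), and mitochondrial scaling turned its sign (-0.24).

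The combinations differed from the high dose of THZ531 in part of the family. EGFR was lower in the lapatinib combination than with THZ531 (1 µM), at a log2 FC of -0.67 ± 0.10 (SE, adjusted p 2.86e-05), and lower in the nilotinib combination, at -0.50 ± 0.10 (adjusted p 0.00056). In both cases no library of the combination reached the lowest library of the high dose, at 67.3 CPM. ERRFI1 was higher in the combinations than at the high dose by 0.65 ± 0.09 and 0.74 ± 0.09 (adjusted p 1.9e-05 and 5.43e-06). NRG1 was higher by 0.35 ± 0.05 and 0.16 ± 0.05 (adjusted p 5.65e-05 and 0.0348), and neither call held with mitochondrial scaling (adjusted p 0.317 and 0.804). The second was also lost with library size alone (adjusted p 0.134), upper-quartile scaling (0.183), no filter (0.105) and only the groups compared (0.153), and without replicates 2 or 3 of the nilotinib combination or replicates 1 or 2 of THZ531 (1 µM) (adjusted p up to 0.151). HBEGF was higher in the lapatinib combination by 0.26 ± 0.09 (adjusted p 0.0432), but the libraries overlapped and the call was lost in 14 of 21 fits without 1 library and under 5 of 10 other settings. In all, 3 members were higher and 1 lower in the lapatinib combination, against 12.8% and 16.1% of all genes, and 2 were higher and 1 lower in the nilotinib combination, against 11.2% and 13% of all genes. LRIG1 differed by 0.01 (95% interval -0.25 to 0.27) and 0.06 (-0.20 to 0.31), and ERBB2 by -0.19 (-0.43 to 0.04) in both.

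No member was called between the lapatinib and the nilotinib combination by edgeR (0 of 8, against 1.47% of all genes), with 2 at an unadjusted p under 0.05 and 2 called by DESeq2. These 2 were HBEGF, 0.35 higher with lapatinib (log2 FC, 95% interval 0.16 to 0.54, adjusted p 0.0625 by edgeR and 0.00783 by DESeq2), and NRG1, 0.19 higher (0.08 to 0.30, adjusted p 0.0842 and 0.0138). EGFR differed by -0.17 (95% interval -0.37 to 0.03). Between lapatinib and nilotinib alone, whose doses differ, 0 of 8 members were called (0.904% of all genes), with 3 at an unadjusted p under 0.05 and 0 called by DESeq2. The EGFR log2 FC there was -0.15 (95% interval -0.35 to 0.05).

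**Figure D3:**
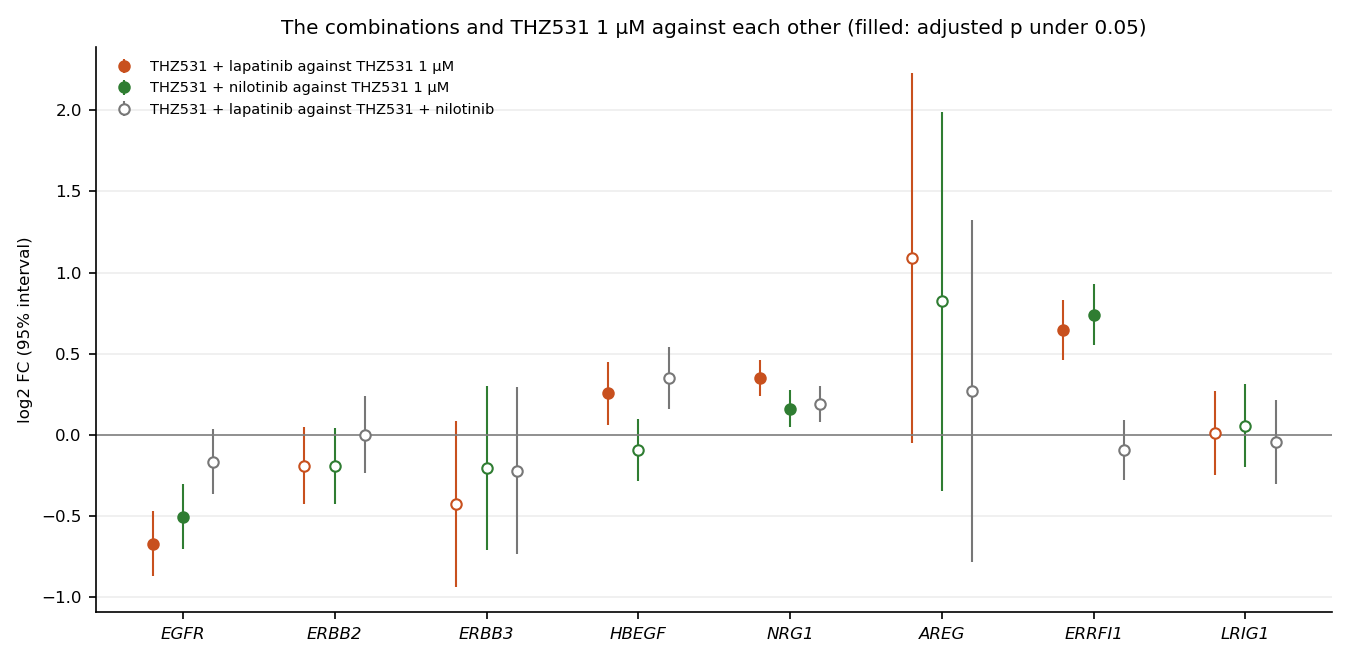
Log2 FC (vertical axis, with 95% intervals) of the 8 tested genes between the lapatinib combination, the nilotinib combination and THZ531 (1 µM). Filled points passed an adjusted p of 0.05; EGFR lies below 0 and ERRFI1 and NRG1 above 0 in both combinations against the high dose, and no point is filled between the combinations.

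The interaction term asks whether a combination departs from the sum of the log2 FCs of its parts. For EGFR the single agents summed to -0.25 and the lapatinib combination gave -1.97, an interaction of -1.72 ± 0.14 (SE, adjusted p 1.74e-09). With nilotinib they summed to -0.10 against -1.81, an interaction of -1.71 ± 0.14 (adjusted p 2.24e-09). For HBEGF the sums were 0.36 and 0.64 against 2.21 and 1.86, with interactions of 1.85 ± 0.13 (adjusted p 4.95e-10) and 1.22 ± 0.13 (adjusted p 1.75e-07). ERBB2 departed by -0.38 ± 0.16 with lapatinib (adjusted p 0.0472), a call lost in 12 of 21 fits without 1 library and under 5 of 10 other settings, and by -0.48 ± 0.16 with nilotinib (adjusted p 0.0141). LRIG1 departed by 0.57 ± 0.18 with lapatinib (adjusted p 0.00874), where mitochondrial scaling left 0.01 (adjusted p 0.97), and ERRFI1 by 0.51 ± 0.13 with nilotinib (adjusted p 0.00197), where it left 0.07 (adjusted p 0.847). For ERRFI1 with lapatinib the term was 0.28 (adjusted p 0.0613). This term passed with the replicate number as a block (adjusted p 0.0318), upper-quartile scaling (0.00176) and DESeq2 (0.0462). It also passed with at least 10 counts in every library (0.0319), halved counts (0.0409) and only the groups compared (0.0364). Library size alone and mitochondrial scaling turned its sign (-0.016 and -0.27, not called). Each interaction was thus called for 2 members above and 2 below the sum, against 28.2% and 32% of all genes with lapatinib (60.3% in all) and 25.6% and 31.2% with nilotinib (56.8% in all). NRG1 departed by 0.07 (95% interval -0.09 to 0.23) and 0.01 (-0.15 to 0.17).

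**Figure D4:**
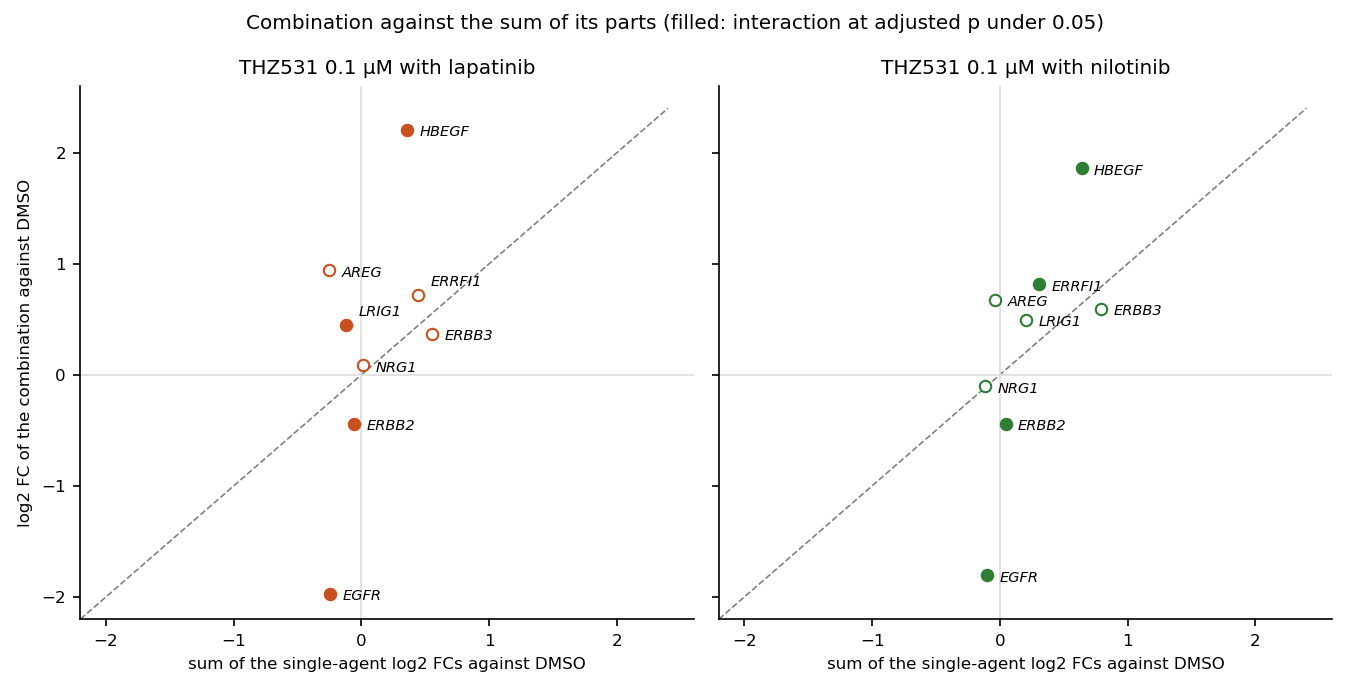
Log2 FC of each combination against DMSO (vertical axis) against the sum of the log2 FCs of its single agents (horizontal axis), lapatinib on the left and nilotinib on the right, 1 point per tested gene. The dashed line marks equality, and filled points had an interaction at an adjusted p under 0.05; HBEGF lies at 2.21 and 1.86 above sums of 0.36 and 0.64, and EGFR at -1.97 and -1.81 below sums of -0.25 and -0.10.

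The wider pathway was followed in 29 further genes listed by role, of which 24 passed the filter (ERBB4, NRG3, NRG4, GRB7 and CBLC did not). Of these, 10 were higher, 12 lower and 2 not called in the lapatinib combination, and the numbers were 10, 11 and 3 in the nilotinib combination and again 10, 11 and 3 with THZ531 (1 µM), beside the shares of all genes given above. With mitochondrial scaling 1, 0 and 1 of them were higher and 16, 16 and 14 lower. With library size alone 5, 4 and 6 were higher and 14, 14 and 12 lower, and upper-quartile scaling left 10 higher in each. The number of rises called in this list thus depended on the scaling. Lapatinib alone and nilotinib alone called 0 of 24 by edgeR and 0 by DESeq2, with 2 and 4 at an unadjusted p under 0.05 by edgeR. THZ531 (0.1 µM) alone called 1 gene, RHBDF2, a rhomboid pseudoprotease that carries the protease ADAM17 to the cell surface, at a log2 FC of -0.62 ± 0.11 (SE, adjusted p 0.00211). DESeq2 called 2 of the 24 there, and by edgeR 3 had an unadjusted p under 0.05.

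Of the 4 tested ligands in this list, EGF rose from 1.71 ± 0.108 to 2.68 ± 0.466 CPM (SD, n = 3) in the lapatinib combination (log2 FC 0.65, adjusted p 0.000495; -0.03 and not called with mitochondrial scaling). BTC (betacellulin) had 0 to 4 counts in DMSO and 8 to 12 in the lapatinib combination, and 18 to 20 with THZ531 (1 µM) (log2 FC 2.53, 95% interval 0.89 to 4.17, adjusted p 0.00708, and 3.46, 1.95 to 4.97, adjusted p 0.000271). BTC reached 10 counts in 5 of 21 libraries, all those with THZ531 (1 µM) among them. It thus passed the filter on low counts through the group where it was highest, so its test gives no separate support for a rise. BTC is counted among the higher genes above. EPGN (epigen) fell from 29 to 47 counts to 0 to 10 (log2 FC -2.66, adjusted p 0.000382) and NRG2 from 19 to 32 counts to 2 to 12 (log2 FC -1.31, adjusted p 0.0415). With THZ531 (1 µM) EPGN had 15 to 26 and NRG2 10 to 30 counts, and neither was called lower. EPGN also had 12 to 16 counts with nilotinib alone, below DMSO but not called. EPGN and BTC lie on chromosome 4 in the same neighbourhood as AREG and EREG. Of the 4 genes of ligand release, 3 were higher and 1 lower. RHBDF1, an inactive rhomboid, and ADAM17, the main protease that releases HBEGF, AREG and TGFA, rose by log2 FCs of 0.58 ± 0.11 and 0.55 ± 0.07 (SE), which mitochondrial scaling turned to -0.11 and -0.14, not called. RHBDF2 fell from 28.1 ± 2.87 to 11.1 ± 0.673 CPM (log2 FC -1.34, adjusted p 1.86e-09), and THZ531 (1 µM) left it at 19.4 ± 3.58 CPM.

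Of the 6 tested adaptors, which link the receptors to RAS and phospholipase signalling, 3 were higher, 1 lower and 2 not called in the lapatinib combination. GRB2 rose from 166 ± 3.94 to 285 ± 8.22 CPM (log2 FC 0.78, adjusted p 2.85e-11; 0.10 and not called with mitochondrial scaling), and SHC1 by 0.38 ± 0.06 (SE, adjusted p 1.03e-05; -0.31 and not called with mitochondrial scaling). SOS1, the exchange factor that GRB2 brings to RAS, fell from 51.9 ± 1.16 to 30 ± 4.71 CPM (log2 FC -0.79, adjusted p 2.81e-05). Of the 10 tested genes of receptor down-regulation, 8 were lower and 2 higher. RNF41, a ubiquitin ligase for ERBB3, fell from 49.4 ± 3.45 to 8.45 ± 0.244 CPM (log2 FC -2.55, adjusted p 2.38e-13), and CBL, the ubiquitin ligase of active EGFR, from 61 ± 6.6 to 21 ± 3.06 CPM (log2 FC -1.54, adjusted p 9.24e-09). With THZ531 (1 µM) they lay at 18 ± 3.2 and 30.5 ± 6.32 CPM. SH3KBP1 and HGS, which act in receptor uptake and sorting, were higher by 0.57 ± 0.06 and 0.21 ± 0.07 (SE); mitochondrial scaling turned both negative (-0.12, not called, and -0.47, called).

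**Figure D5:**
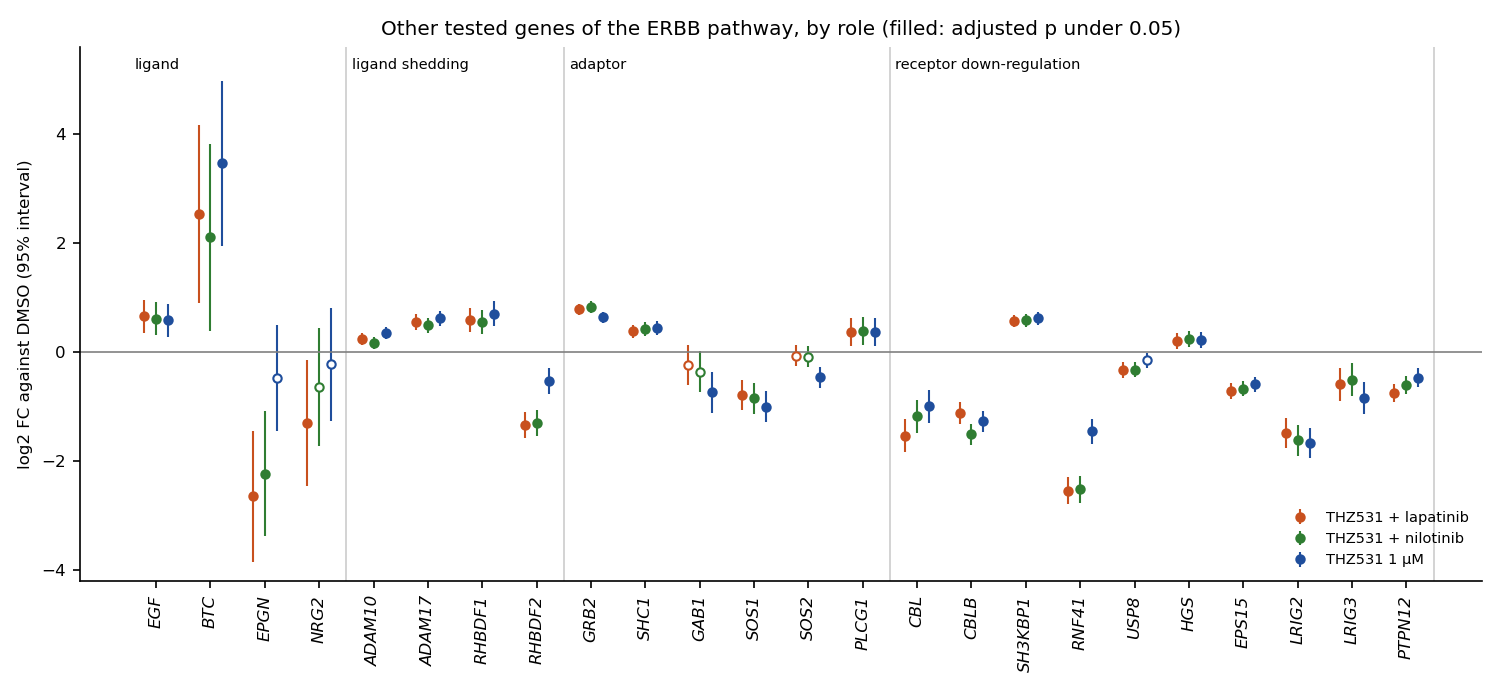
Log2 FC against DMSO (vertical axis, with 95% intervals) of the 24 other tested pathway genes, ordered by role along the horizontal axis, for both combinations and THZ531 (1 µM). Filled points passed an adjusted p of 0.05 on the TMM scale; RNF41 is at -2.55, -2.53 and -1.46, and 8 of the 10 genes of receptor down-regulation are filled below 0 in the lapatinib combination.

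Many genes shared the pattern of EGFR across the 21 libraries, whose 7 treatment groups the correlation reflects. By Pearson's r of log2 CPM over the 21 libraries, the genes most like EGFR were MAU2 (0.996), TNS1 (0.995) and PHLDB1 (0.995), and 1694 of 16035 genes had an r above 0.95. For HBEGF they were GADD45B (0.992), MCMDC2 (0.991) and TUSC3 (0.989), and 742 genes had an r above 0.95. The members also differed in genomic span, from 9.87 kb for AREG to 1134.8 kb for NRG1. Among all genes tested, 40.9% of those spanning 100 kb or more were lower in the lapatinib combination and 27.3% higher, against 37.3% and 35.7% of shorter genes. In that combination the members called higher spanned 13.76 kb (HBEGF), 14.58 kb (ERRFI1) and 122.32 kb (LRIG1), and those called lower 40.56 kb (ERBB2) and 192.61 kb (EGFR). The relation of span to the change was not tested over the members.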

How the data were processed

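RNA from 21 libraries (7 groups of 3) was sequenced in paired-end mode from unstranded, polyA-selected libraries. The counts were deposited by the authors as whole numbers per NCBI gene ID for 28395 genes, with no normalization. The submitters' processing notes name HISAT2 2.1.0, featureCounts, DESeq2 and the build GRCh38. The featureCounts version and annotation, and the unit it counted (a read pair or each of its ends), are not given in the sources used here. Even numbers made up 61.6% to 66.4% of the counts from 1 to 20, so the counting error at low counts may be larger than the counts imply. No column of values was left unused (0 columns). Gene IDs were matched to RefSeq, which gave symbols and GRCh38.p14 coordinates for 27745 of the 28395 genes.

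Genes were kept with the edgeR function filterByExpr (minimum count 10), which left 16036. Library sizes were scaled by TMM, and CPM were computed from them. Contrasts of group means were tested with the edgeR quasi-likelihood test over all 21 libraries, with Benjamini-Hochberg adjustment over the 16036 genes, and a gene was called at an adjusted p under 0.05. Intervals are 95% and not adjusted. R 4.3.3, edgeR 4.0.16, limma 3.58.1 and DESeq2 1.42.0 were used, and the test was first run on simulated data with known changes. Replicates of a group correlated at 0.990 to 0.994 (Pearson's r of log2 CPM). Total counts of 97612207 to 112229052 set the detection limit of 3 counts at 0.0242 to 0.0334 CPM, which covers counting error only.

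The members and the lists of pathway genes were chosen with earlier results of these data known. All 10 members were named, and of the 29 other pathway genes the 2 largest called changes in each direction per role in the lapatinib combination, with SOS1. The 3 genes with the highest correlation to EGFR and to the member with the largest rise were also named. Alternatives were other scalings, filters, DESeq2, halved counts, only the groups compared, the replicate number as a block, and leaving out each library. Deviations from the group means correlated above 0.1 in all 3 same-numbered pairs between the combinations (0.33 to 0.806), between lapatinib and nilotinib alone (0.142 to 0.506), and between lapatinib and its combination (0.117 to 0.664). The pairing there was found in the data and is not stated by the labels. None of the 3 pairs lay above 0.1 between the lapatinib or nilotinib combination and THZ531 (1 µM) (-0.667 to -0.113 and -0.718 to 0.072). The same held between the THZ531 doses (-0.326 to -0.023).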

Additional observations from a re-analysis of the deposited data

Results flagged for a closer look

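For 8 results the combination's log2 FC differed from the sum of those of its single agents, by the edgeR interaction test adjusted over all genes. With lapatinib, EGFR departed by -1.72 (adjusted p 1.74e-09), HBEGF by 1.85 (adjusted p 4.95e-10), ERBB2 by -0.38 (adjusted p 0.0472) and LRIG1 by 0.57 (adjusted p 0.00874). With nilotinib, EGFR departed by -1.71 (adjusted p 2.24e-09), HBEGF by 1.22 (adjusted p 1.75e-07), ERBB2 by -0.48 (adjusted p 0.0141) and ERRFI1 by 0.51 (adjusted p 0.00197). Both interactions share the DMSO and THZ531 (0.1 µM) libraries, and over all genes 60.3% and 56.8% departed from the sum. The departures of EGFR and HBEGF were called under every scaling run, and those of LRIG1 with lapatinib and ERRFI1 with nilotinib were lost with library size alone (adjusted p 0.207 and 0.0975) and with mitochondrial scaling (adjusted p 0.97 and 0.847). That of ERBB2 with lapatinib was lost under 5 of 10 other settings, which were upper-quartile scaling (adjusted p 0.31), DESeq2 size factors in edgeR (0.0505), at least 10 counts in every library (0.0639), halved counts (0.0563) and only the groups compared (0.0521), and that with nilotinib under upper-quartile scaling (0.0884).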

How the results depend on the processing

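Of the log2 FCs of the members under the 10 other settings, 1026 kept their direction and their side of the threshold, 39 lost a call, 38 gained one and 55 changed sign, and without 1 library at a time the numbers were 2407, 43, 19 and 51. The changes against DMSO of EGFR and HBEGF in both combinations and with THZ531 (1 µM) kept their call throughout. The cause of the lost and turned results was not tested. Treatments named below without a partner are compared with DMSO. With DESeq2 size factors in edgeR the log2 FC changed sign in THZ531 (0.1 µM) for ERBB2 (0.0065) and in the THZ531 doses for AREG (0.0018). With DESeq2 the log2 FC changed sign in THZ531 (0.1 µM) for ERBB2 (0.0065) and in the THZ531 doses for AREG (0.0008). With library size alone the log2 FC changed sign in nilotinib for EGFR (-0.013), in the lapatinib combination for NRG1 (-0.24), in THZ531 (1 µM) for ERRFI1 (-0.18), in the lapatinib combination against THZ531 (1 µM) for LRIG1 (-0.059), in the combinations against each other for ERBB2 (-0.025), in the lapatinib combination against lapatinib for ERBB3 (-0.10) and NRG1 (-0.14), in the nilotinib combination against nilotinib for ERBB3 (-0.074) and NRG1 (-0.15), in the lapatinib interaction for NRG1 (-0.22) and ERRFI1 (-0.016) and in the nilotinib interaction for NRG1 (-0.23). With upper-quartile scaling the log2 FC changed sign in the nilotinib combination for NRG1 (0.035), in THZ531 (1 µM) for AREG (0.048), in the lapatinib combination against THZ531 (1 µM) for LRIG1 (-0.035), in the nilotinib combination against THZ531 (1 µM) for LRIG1 (-0.0069), in the THZ531 doses for ERBB2 (0.0054), AREG (0.23) and ERRFI1 (0.053) and in the lapatinib interaction for ERBB3 (0.0071). With mitochondrial scaling the log2 FC changed sign in lapatinib for HBEGF (-0.046), in nilotinib for EGFR (-0.16), ERBB2 (-0.10), AREG (-0.075), ERRFI1 (-0.13) and LRIG1 (-0.10), in the lapatinib combination for ERBB3 (-0.32), NRG1 (-0.60) and LRIG1 (-0.24), in the nilotinib combination for ERBB3 (-0.018) and LRIG1 (-0.13), in THZ531 (1 µM) for ERRFI1 (-0.48) and LRIG1 (-0.11), in the lapatinib combination against THZ531 (1 µM) for LRIG1 (-0.13), in the nilotinib combination against THZ531 (1 µM) for LRIG1 (-0.022), in the combinations against each other for ERBB2 (-0.060), in the lapatinib combination against lapatinib for ERBB3 (-0.32), NRG1 (-0.35) and ERRFI1 (-0.015), in the nilotinib combination against nilotinib for ERBB3 (-0.20), NRG1 (-0.31) and LRIG1 (-0.033), in the THZ531 doses for ERBB3 (-0.15) and LRIG1 (-0.24), in the lapatinib interaction for NRG1 (-0.47) and ERRFI1 (-0.27) and in the nilotinib interaction for NRG1 (-0.44) and LRIG1 (-0.17). With the replicate block the log2 FC changed sign in the lapatinib combination against THZ531 (1 µM) for LRIG1 (-0.0062). With no filter on low counts the log2 FC changed sign in the combinations against each other for ERBB2 (-0.0031). With only the groups compared the log2 FC changed sign in the combinations against each other for ERBB2 (-0.0009).

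The replicate block also moved calls where the numbers share no stated pairing: ERBB2 with THZ531 (1 µM) against DMSO was called (-0.24, adjusted p 0.0112), as were ERBB2 and ERRFI1 between the THZ531 doses (-0.22, adjusted p 0.0175, and -0.18, adjusted p 0.0442) and ERRFI1 in the lapatinib interaction (0.28, adjusted p 0.0318). Where all 3 pairs correlated, the block changed no call. Out of 3 possible numbers, 8 of 21 libraries correlated best with their own, which does not establish a pairing over all groups.

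Without 1 library, the log2 FC ranged across 0 in THZ531 (0.1 µM) for AREG (-0.39 to 0.071) and ERBB2 (-0.10 to 0.071), in lapatinib for AREG (-0.36 to 0.29) and ERBB2 (-0.11 to 0.044), in nilotinib for EGFR (-0.057 to 0.11), ERBB2 (-0.0053 to 0.15) and AREG (-0.43 to 0.41), in THZ531 (1 µM) for AREG (-0.46 to 0.21) and ERRFI1 (-0.018 to 0.18), in the lapatinib combination against THZ531 (1 µM) for LRIG1 (-0.070 to 0.14), in the nilotinib combination against THZ531 (1 µM) for LRIG1 (-0.041 to 0.19), in the combinations against each other for ERBB2 (-0.094 to 0.10) and LRIG1 (-0.18 to 0.080), in lapatinib against nilotinib for AREG (-0.51 to 0.32) and ERBB3 (-0.43 to 0.074), in the THZ531 doses for AREG (-0.32 to 0.36), in the lapatinib interaction for ERBB3 (-0.36 to 0.0014) and in the nilotinib interaction for ERBB3 (-0.39 to 0.13) and NRG1 (-0.0005 to 0.028). The number of members called moved from 0 with THZ531 (0.1 µM) to 1 with DESeq2 and 2 with only the groups compared, and to 0 to 1 without 1 library. With nilotinib it moved from 0 to 1 with library size alone, with at least 10 counts in every library and with halved counts, to 2 with DESeq2, and to 0 to 1 without 1 library. In both cases the library was replicate 2 of THZ531 (1 µM). Between the combinations it moved from 0 to 2 with upper-quartile scaling and with DESeq2, and to 0 to 1 without replicate 1 of the lapatinib combination or replicates 1 or 2 of THZ531 (1 µM). Mitochondrial scaling moved it from 4 to 2 in the lapatinib combination against THZ531 (1 µM), and from 6 to 3 in the nilotinib combination against nilotinib. AREG had 2 to 14 counts in a library, and EREG and TGFA were too low to be tested.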
